A study of Mus musculus with 2 samples.

Results

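Collagens are the main structural proteins of the extracellular matrix, and 44 collagen genes were measured here in the olfactory bulb of 1 control mouse and 1 mouse exposed to added odors. They were taken from the arrays by name, as every probe whose gene name is Col followed by a type number, the letter a and a chain number. The rule gave 45 of 37074 gene names on the array, with 95 of 56605 probes. One of the 45, Col4a3bp, encodes a ceramide transfer protein and no collagen, so it stands outside all collagen counts. Its log2 signal, after subtraction of the 75th percentile of the array, was -0.08 for the control mouse and 0.74 for the odor-enriched mouse, a difference of 0.82. The other 44 names carried 91 probes. The control mouse lived in standard odor conditions and the other in odor-enriched conditions, with total RNA of each bulb labelled with Cy3 on 1 Agilent array. The labels do not name the odors, the duration of exposure, or the strain, age and sex of the mice. With 1 mouse per group there was no replicate check, so every comparison describes these samples and no test was possible.

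A collagen is built from 3 chains that wind into a triple helix, which requires a glycine at regular steps along each chain. Fibrillar collagens form the ropes of connective tissue, and the fibril-associated collagens (FACIT) sit on the surface of those ropes. Basement membrane collagens form the sheets under endothelium and around nerve bundles, and the remaining types form beaded filaments, hexagonal nets or cell surface proteins. In the brain, collagens are mostly made by cells of the vessels, the meninges and the perivascular space, while the olfactory bulb also receives the sheathed olfactory nerve.

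The repeat of glycine can be read directly in some of the array's probes, which are shown because they carry the defining feature of the family and because 1 of them gave the largest collagen difference between the mice. Glycine codons are GGN, so in a helix they recur every 9 bases. At least 4 such codons in register were found in 7 of 91 collagen probes (7.69%) and in 28 of all 56605 probes (0.0495%). The 60-base probe sequences follow, 5′ to 3′ as in the deposited files, with the codons in register in capitals.
Col5a3: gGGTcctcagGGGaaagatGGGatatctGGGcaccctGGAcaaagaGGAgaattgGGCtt
Col11a2: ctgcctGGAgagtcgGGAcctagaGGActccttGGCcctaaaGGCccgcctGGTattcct
Col15a1: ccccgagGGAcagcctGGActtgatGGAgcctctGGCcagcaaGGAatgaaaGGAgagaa
Col14a1: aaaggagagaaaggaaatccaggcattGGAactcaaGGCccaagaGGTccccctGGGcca
Col16a1: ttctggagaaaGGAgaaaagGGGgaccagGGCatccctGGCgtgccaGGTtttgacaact
Col22a1: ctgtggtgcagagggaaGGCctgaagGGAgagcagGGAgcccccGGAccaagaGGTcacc
Col6a3: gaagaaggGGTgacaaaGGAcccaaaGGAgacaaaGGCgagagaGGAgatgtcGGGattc

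By the files' coordinates on mm9, the Col6a3 probe spans chr1:92689602-92690594 on the minus strand, and the Col5a3 probe chr9:20590066-20590795, also on the minus strand. Both cross an intron, as do the probes of Col22a1 (chr15:71767749-71768433, minus strand) and Col11a2 (chr17:34189287-34189453, plus strand). The probes of Col15a1 (chr4:47283786-47283845), Col14a1 (chr15:55347733-55347792) and Col16a1 (chr4:129756457-129756516) are unbroken on the plus strand. In all, 12 of the 91 collagen probes cross an intron. The exon of each probe was not annotated here.

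Differences are odor enriched minus control on the log2 scale, after the 75th percentile of each array was subtracted. Probes well above background made up 73.7% of the control array's spots and 67.6% of the odor-enriched array's. The lowest signal well above background lay at -5.69 and -4.66 log2 units in the same order. The labels call the tissue neurons of the bulb, but name no sorting step. All 14 neuronal markers were above background on both arrays, with a median difference of -0.42 and a range from -1.84 (Doc2g) to 0.50 (Syt1). All 14 endothelial markers and all 14 markers of meningeal and perivascular fibroblasts were above background on both arrays as well.

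Of the 44 collagens, 38 had a probe well above background on both arrays. In the odor-enriched mouse 8 of these 38 (21.1%) were at least 2-fold lower, against a background of 5.52% of all 23872 measured genes. Another 6 (15.8%) were at least 2-fold higher, against 11.5% of all genes, which is close to that background. Their median difference was -0.14, with 21 of 38 below 0 where 49.9% of all genes were. The median of all genes was 0.0016. A lower signal in a whole bulb can mean fewer cells of a type or less RNA per cell, and these cannot be told apart.

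The background correction bears on the excess of lower collagens. With normexp, which shrinks differences between dim probes, 1 collagen was at least 2-fold lower and 5 were higher, while 2.61% of all genes were lower and 5.26% higher. The share of lower collagens was then that of all genes. The share of higher collagens was not, with 5 of 38 beside 5.26% of all genes, where it had been 6 of 38 beside 11.5%. With the deposited matrix values, whose scaling raises the median of all genes by 0.33, 4 were lower and 10 higher, beside 2.44% and 18.7% of all genes. With median centring, which lowers that median by 0.17, 11 collagens were lower and 5 higher, beside 8.63% and 8.95% of all genes. Scaling to the spiked-in E1A control RNA lowered the median of all genes by 1.78 and left 29 collagens lower and 0 higher, beside 84.3% and 1.52% of all genes.

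**Figure D1:**
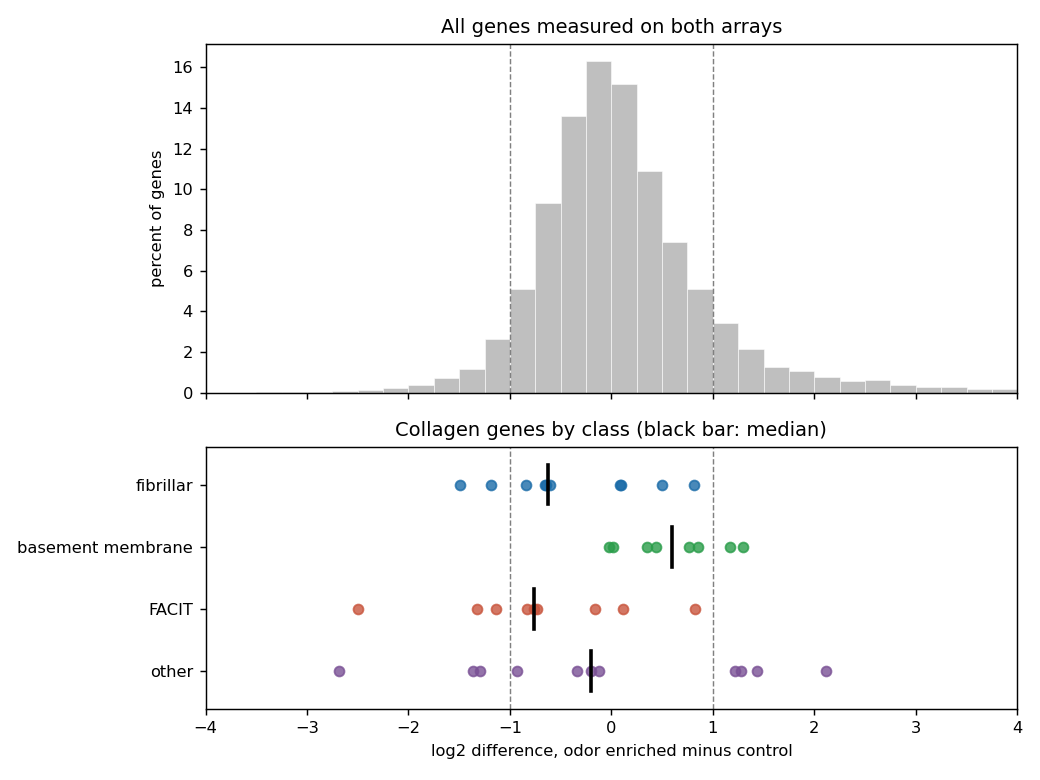
The upper panel gives the share of 23872 genes in each bin of the log2 difference (odor enriched minus control), and the lower panel gives each of 38 collagen genes as a point by class, with the class median as a black bar and the 2-fold limits dashed; a few genes beyond 4 log2 units are not drawn. The basement membrane median (0.60) lies above 0 and the FACIT (-0.76) and fibrillar (-0.62) medians below it; with E1A scaling all class medians lie below 0.

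The classes were spread unevenly around 0. Over all genes 11.5% were at least 2-fold higher and 5.52% lower. The basement membrane collagens had 2 of 8 members at least 2-fold higher, 0 lower and a median of 0.60. Of these 2, Col4a5 joins probes at 2.83 and -0.24 and fell to -0.23 in an alternative given below. Col4a2 rests on 1 probe. The fibrillar collagens had 2 of 10 lower, 0 higher and a median of -0.62, and the FACIT collagens 3 of 9 lower, 0 higher and a median of -0.76. The remaining types lay on both sides, with 3 of 11 lower, 4 higher and a median of -0.20. Under 12 other ways of processing, E1A scaling apart, the basement membrane median stayed above 0 (0.35 to 0.93). Under the same alternatives the fibrillar median stayed below 0 (-0.80 to -0.15), as did the FACIT median (-1.14 to -0.15). Those of the 12 that only move all genes by 1 constant (0.33 at most in size) could turn none of these medians. The median of the remaining types was above 0 in 2 of the 12, reaching 0.13.

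**Figure D2:**
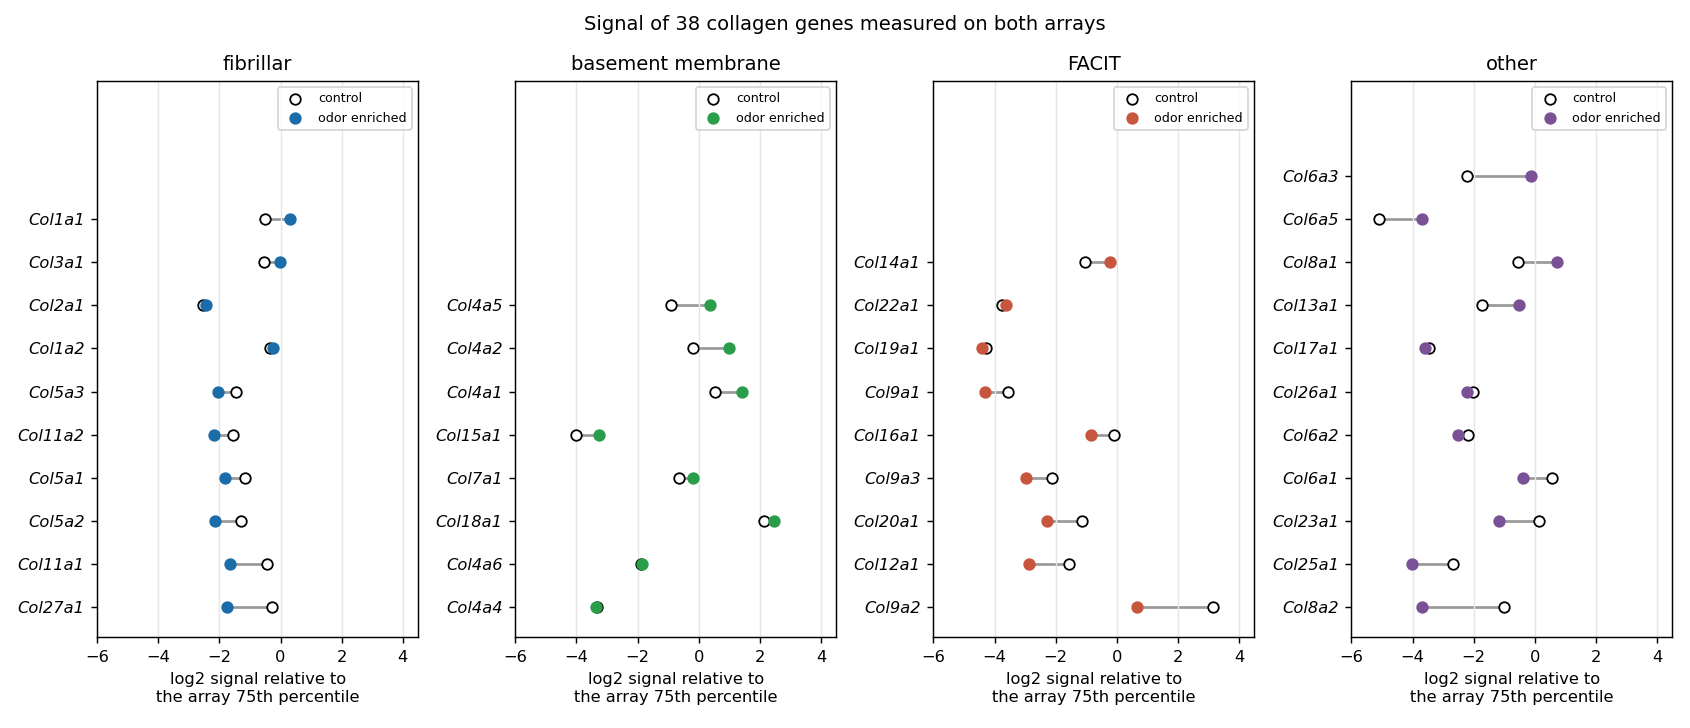
Each row is 1 collagen gene measured on both arrays, with the control (open) and the odor-enriched mouse (filled) on an axis of log2 signal above or below the array's 75th percentile, by class and ordered by their difference. Col9a2 runs from 3.15 to 0.65 and Col8a2 from -1.02 to -3.70, while Col4a1 and Col4a2 run the other way, and their order turns under E1A scaling; positions on the axis compare mice within a gene and not genes with each other.

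Among the fibrillar collagens measured on both arrays, the genes of the minor fibrils lay below 0, and those of the main fibrils near 0 or above it. Col27a1, a fibrillar collagen of cartilage, had a signal of -0.27 in the control mouse and -1.76 in the odor-enriched one, a difference of -1.49 or 2.81-fold lower, from 1 of its 2 probes. Col11a1 encodes a chain of type XI collagen, which sets the diameter of cartilage fibrils. It was at -0.45 in the control mouse and -1.64 in the odor-enriched one, a difference of -1.19. Its probes on chromosome 3 gave -1.22 and -1.16, and of the 15 collagens with more than 1 measured probe it was the only one whose measured probes were all at least 2-fold lower. The partner chain Col11a2 was at -1.55 and -2.19, a difference of -0.64.

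The 3 chains of type V collagen, which nucleates type I fibrils, were all lower by less than 2-fold in probes above background on both arrays. Col5a2 was at -1.30 in the control mouse and -2.14 in the odor-enriched one (-0.84), with probes at -0.96 and -0.71. Col5a1 went from -1.15 to -1.81 (-0.65). Col5a3 went from -1.45 to -2.05 (-0.61), and its helix probe, above background in the control only, went the other way, from -5.59 to -5.02. With that probe counted, Col5a3 differed by -0.02. With normexp the differences of the 3 genes shrank to between -0.39 and -0.20.

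The genes of the main fibrils did not share that direction. Col1a1, the major chain of type I collagen, was higher in the odor-enriched mouse, at 0.31 against -0.50, a difference of 0.82. Its probes gave 0.56, 0.65 and 1.24, and the first 2 of these are printed on 10 spots each. The spots of the first were at -0.0857 ± 0.0553 (SD, n = 10 spots) for the control mouse and 0.474 ± 0.0795 for the odor-enriched mouse, and those of the second at -0.423 ± 0.0501 and 0.226 ± 0.114. Spots are technical repeats, with a pooled SD of 0.0465 over 300 probes of the array, and the 2 probes share 20 bases. Their spread measures the printing and reading of a probe and not the variation between mice. Col1a2, the other chain of type I collagen, was at -0.35 and -0.26, a difference of 0.09 that turned below 0 in 3 of the 12 alternatives. With its probe above background in the control only counted, Col1a2 differed by -0.49. Col3a1, which forms mixed fibrils with type I, was at -0.53 and -0.03 (0.50). Col2a1, the cartilage fibril collagen, differed by 0.10, below 0 in 2 of the 12. Col24a1 was above background in the control only, at -4.73 against -5.53, too near the limit for a bound on the fold. Across the array 7.29% of genes were above background in the control alone and 1.21% in the odor-enriched mouse alone.

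Markers of fibroblasts, of cartilage and bone, and of muscle and nasal tissue did not move as one. Of the 14 meningeal and perivascular fibroblast markers, 5 were at least 2-fold lower and 2 higher, beside 5.52% and 11.5% of all genes. Their median was -0.65, from Slc6a13 (-1.44) to Mgp (1.66). Their summed signal on the log2 scale was 8.83 (control) and 8.63 (odor enriched), most of it from Ptgds alone (8.59 and 8.34). Of 12 cartilage and bone markers 7 were measured, 0 of them at least 2-fold lower, from Runx2 (-0.98, above 0 in 2 of the 12 alternatives) to Bglap (1.48). Their summed signal was 1.79 and 1.35, and Matn1, Matn3, Ibsp and Phex were not well above background on either array. Dmp1 was above background in the odor-enriched mouse only, at -7.97 and -2.36. Of 8 skeletal muscle markers 4 were measured, from Tnnt3 (-0.48) to Acta1 (1.30). Another 2, Myh1 (-2.54 and -5.35) and Myh2, were above background in the control only, and 2 on neither array. Of 12 markers of nasal epithelium and glands 8 were measured, from Cdh1 (-1.03) to Krt5 (0.56). The other 4 (Krt8, Epcam, Cyp2g1 and Lcn11) were above background in the control only, where 7.29% of all genes were. The lowest signal well above background lay higher on the odor-enriched array (-4.66) than on the control array (-5.69). A marker can so be lost from the odor-enriched array with little difference, as Lcn11 was (-5.58 and -5.67). The part of any of these cells in the collagen values was not tested.

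Among the basement membrane collagens, the pair found in nearly all basement membranes was higher in the odor-enriched mouse. Col4a1 was at 0.55 in the control mouse and 1.40 in the odor-enriched one, a difference of 0.86 or 1.81-fold. Col4a2 was at -0.18 and 0.98, a difference of 1.17 or 2.24-fold. The 2 chains assemble together, and their genes lie head to head, with probes at chr8:11199009-11199068 on the minus strand and chr8:11448840-11448899 on the plus strand. Each rests on 1 probe. Without E1A scaling the differences stayed between 0.68 and 1.19 for Col4a1 and between 0.992 and 1.499 for Col4a2, and with it they were -0.93 and -0.62. The spots around the Col4a1 probe had a median difference of 0.62, against 0.17 over all spots.

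The chains of the specialised type IV networks gave no such pattern. Col4a5, a chain of both the kidney and the smooth muscle networks, averaged -0.91 in the control mouse and 0.38 in the odor-enriched one, a difference of 1.30. That mean joins a probe at 2.83 (chrX:138122995-138123054) and one at -0.24 (chrX:138123547-138123606), both on the plus strand. The spots around the first had a median difference of 1.0004, and 0.615% of all spots lay in surroundings past 0.8 in size. With such spots left out, Col4a5 was at -0.23 and 5 collagens in place of 6 were at least 2-fold higher. Col4a6, its partner in the smooth muscle network, differed by 0.02, from -1.88 to -1.86. Col4a4 differed by -0.02, with probes at -1.35 and 1.31. Both Col4a4 and Col4a6 changed side of 0 among the alternatives, and Col4a3 was not well above background on either array.

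The other members of the basement membrane zone were higher by less than 2-fold. Col15a1 and Col18a1 encode the multiplexins, which link basement membranes to the matrix around them and release anti-angiogenic fragments. Col15a1 was at -4.01 and -3.24 (0.76) by its helix probe, and Col18a1 at 2.12 and 2.48 (0.35). Col7a1, the anchoring fibril collagen, was at -0.63 and -0.19 (0.44). With E1A scaling all 3 lay below 0, between -1.43 and -1.02.

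Markers of vessel cells were higher in the same mouse. All 14 endothelial markers lay above 0, with a median of 1.80, from Cldn5 (0.71) to Emcn (3.10). Of these markers 11 were at least 2-fold higher, beside 11.5% of all genes. Their summed signal on the log2 scale was 5.004 (control) and 6.14 (odor enriched), with Cldn5 the largest part (4.54 and 5.25). Of 12 markers of pericytes and smooth muscle 8 were at least 2-fold higher, with a median of 1.70, from Vtn (-0.85) to Kcnj8 (2.56). Their summed signal was 6.10 and 6.37, with Vtn the largest part (5.65 and 4.80). With E1A scaling the endothelial median was 0.02 and the pericyte median -0.08. The part of vessel cells in the type IV collagen values was not tested.

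Among the FACIT collagens, Col9a2 had the largest difference. Col9a2, a chain of type IX collagen, which coats cartilage fibrils, was at 3.15 in the control mouse and 0.65 in the odor-enriched one. The difference of -2.50 is 5.65-fold and rests on 1 probe (chr4:120727698-120727757, plus strand). It stayed between -2.67 and -2.16 in the 12 alternatives, and was the only lower collagen to keep 2-fold in all of them. Both ends of that range come from constants that move all genes (-0.17 with median centring and 0.33 with the matrix values). With 1 probe above background on both arrays, Col9a2 could not be changed by the filters or probe rules. With normexp it was at -2.40. The other type IX chains were lower by less than 2-fold. Col9a3 went from -2.12 to -2.95 (-0.83), with probes at -1.02 and -0.65. Col9a1 went from -3.56 to -4.29 (-0.73), but its probes were at -1.82 and 0.36 and its difference with normexp was 0.01.

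Col12a1 and Col20a1 completed the FACIT genes with a 2-fold lower signal. Col12a1, a collagen of tendon and other loaded tissue, was at -1.55 in the control mouse and -2.88 in the odor-enriched one (-1.33), from probes at -1.67 and -0.98. Col20a1 was at -1.14 and -2.28 (-1.14). With normexp they were at -0.54 and -0.49. Col16a1, which is found at the edge of fibrils, averaged -0.08 and -0.85 (-0.76) from a probe at -1.59 and the helix probe at 0.06.

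The remaining FACIT genes were near 0 or above it. Col19a1 went from -4.26 to -4.42 (-0.16), and Col22a1, a collagen of tissue junctions, from -3.75 to -3.64 (0.11). Both changed side of 0 in 3 of the 12 alternatives. Col14a1, which binds the surface of type I fibrils, was at -1.03 and -0.21 (0.82) by its helix probe, and at -0.96 with E1A scaling. Col21a1 has no probe under that name on the array.

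Markers of glia of the olfactory nerve were lower beside the type IX chains. Of 11 measured markers of olfactory ensheathing glia 8 were at least 2-fold lower and 0 higher, beside 5.52% and 11.5% of all genes. Their median was -1.26, from Foxd3 (-2.12) to S100b (-0.44). Their summed signal on the log2 scale was 9.002 (control) and 8.09 (odor enriched), with Fabp7 (7.76 and 6.66) and S100b (7.15 and 6.71) the largest parts. Of 8 astrocyte markers 2 were lower and 0 higher, from Gfap (-2.13) to Aqp4 (0.66). Their summed signals were 8.33 and 7.44, most of it from Aldoc alone (8.05 and 7.05). The part of these cells in the FACIT values was not tested.

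The remaining types held both ends of the collagen range. Col8a2, a chain of the short-chain type VIII collagen of vessel walls and the corneal endothelium, was at -1.02 in the control mouse and -3.70 in the odor-enriched one. The difference of -2.68 is 6.42-fold, from 1 of its 2 probes (chr4:125991441-125991500, plus strand). With normexp it was -0.96. Col8a1, the other chain, went the opposite way, from -0.57 to 0.71 (1.27 or 2.42-fold, from 1 probe), and stayed at or above 1.001 in the 12 alternatives, although E1A scaling put it at -0.51.

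Type VI collagen, which forms beaded filaments around cells and nerves, also had chains on both sides. Col6a1 was at 0.55 in the control mouse and -0.38 in the odor-enriched one (-0.93). Col6a2 was at -2.18 and -2.52 (-0.34), with its 2 other probes above background in the control only. Col6a3, the long chain of the same molecule, averaged -2.24 in the control mouse and -0.12 in the odor-enriched one, the highest collagen difference at 2.11. Its probes differed widely. The helix probe printed above was at -2.20 and 1.33 (3.52), while a probe at chr1:92663663-92663722 was at -2.28 and -1.57 (0.70). The last probe, which lies inside the span that the helix probe bridges, was above background in the control only, at -5.48 and -6.59. With that probe counted, Col6a3 differed by 1.04.

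The alternative type VI chains lay near the background. Col6a5 was at -5.11 in the control mouse and -3.68 in the odor-enriched one (1.43), and at 0.40 with normexp. Col6a6 was above background in the odor-enriched mouse only, at -6.10 and -3.17. It was 5.71-fold higher when the control is set at the lowest signal well above background there. Col6a4 was above background in the control only, at -4.80 and -5.91, which gives no bound. Col28a1, a collagen of peripheral nerve sheaths, was above background in the control only by both probes, at -4.07 and -6.06. It was 1.51-fold lower when the odor-enriched mouse is set at the lowest signal well above background there.

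Of 4 transmembrane collagens, which stand on cell surfaces, 2 were at least 2-fold lower and 1 higher. Col23a1 was at 0.14 in the control mouse and -1.16 in the odor-enriched one (-1.30), and its 3 probes lay at -2.10, -0.94 and -0.85. Col25a1, made by neurons and found in amyloid plaques, was at -2.67 and -4.03 (-1.36), and at -0.20 with normexp. Col17a1, the hemidesmosomal collagen, was at -3.47 and -3.59 (-0.12), and changed side in 3 of the 12 alternatives. Col13a1, a collagen of the neuromuscular junction, averaged -1.74 and -0.53 (1.22) from probes at 2.45 and -0.02. The secreted Col26a1 was at -2.01 and -2.21 (-0.20), with 1 of its 3 probes above 0. Col10a1, the collagen of growth plate cartilage, was not well above background on either array.

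**Figure D3:**
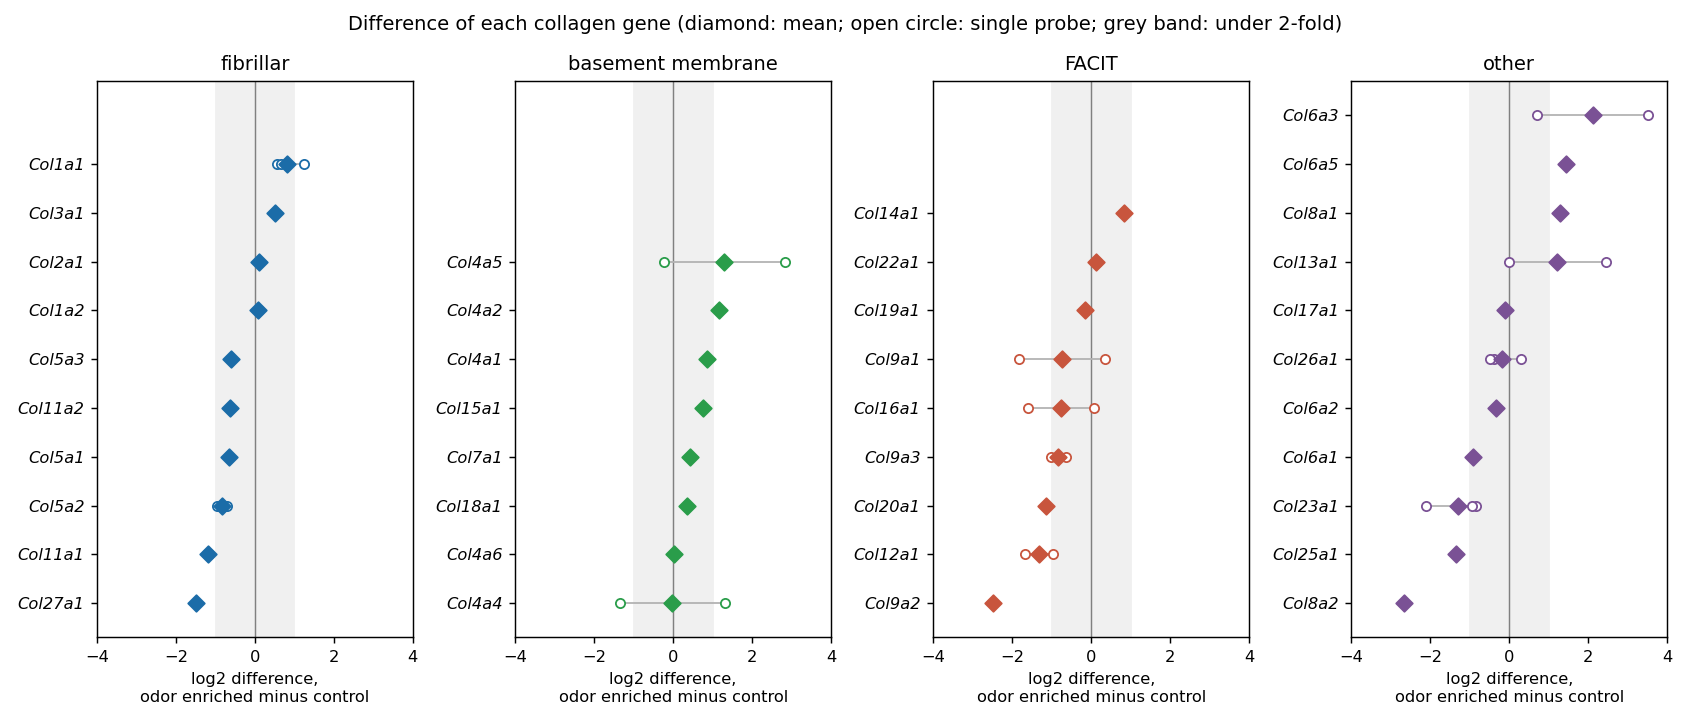
Log2 differences (odor enriched minus control) are drawn for each collagen gene by class, with the gene mean as a diamond, each probe above background on both arrays as an open circle, and the band under 2-fold in grey. Open circles lie far apart for Col4a5 (-0.24 and 2.83), Col6a3 (0.70 and 3.52), Col13a1 (-0.02 and 2.45) and Col4a4 (-1.35 and 1.31), and close together for Col11a1 (-1.22 and -1.16).

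Probes of one collagen often disagreed. Of 15 collagens with more than 1 measured probe, 5 had all probes below 0, 4 had all above 0 and 6 had probes on both sides. The median gap between the highest and lowest probe of a collagen was 0.78 log2 units. Over 8234 genes of the array the pooled SD between probes of a gene was 0.63, while repeat spots of 1 probe had a pooled SD of 0.0465 over 300 probes. Of the 6 higher collagens, 3 (Col4a5, Col6a3 and Col13a1) averaged such distant probes, and for 23 collagens only 1 probe was measured.

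**Figure D4:**
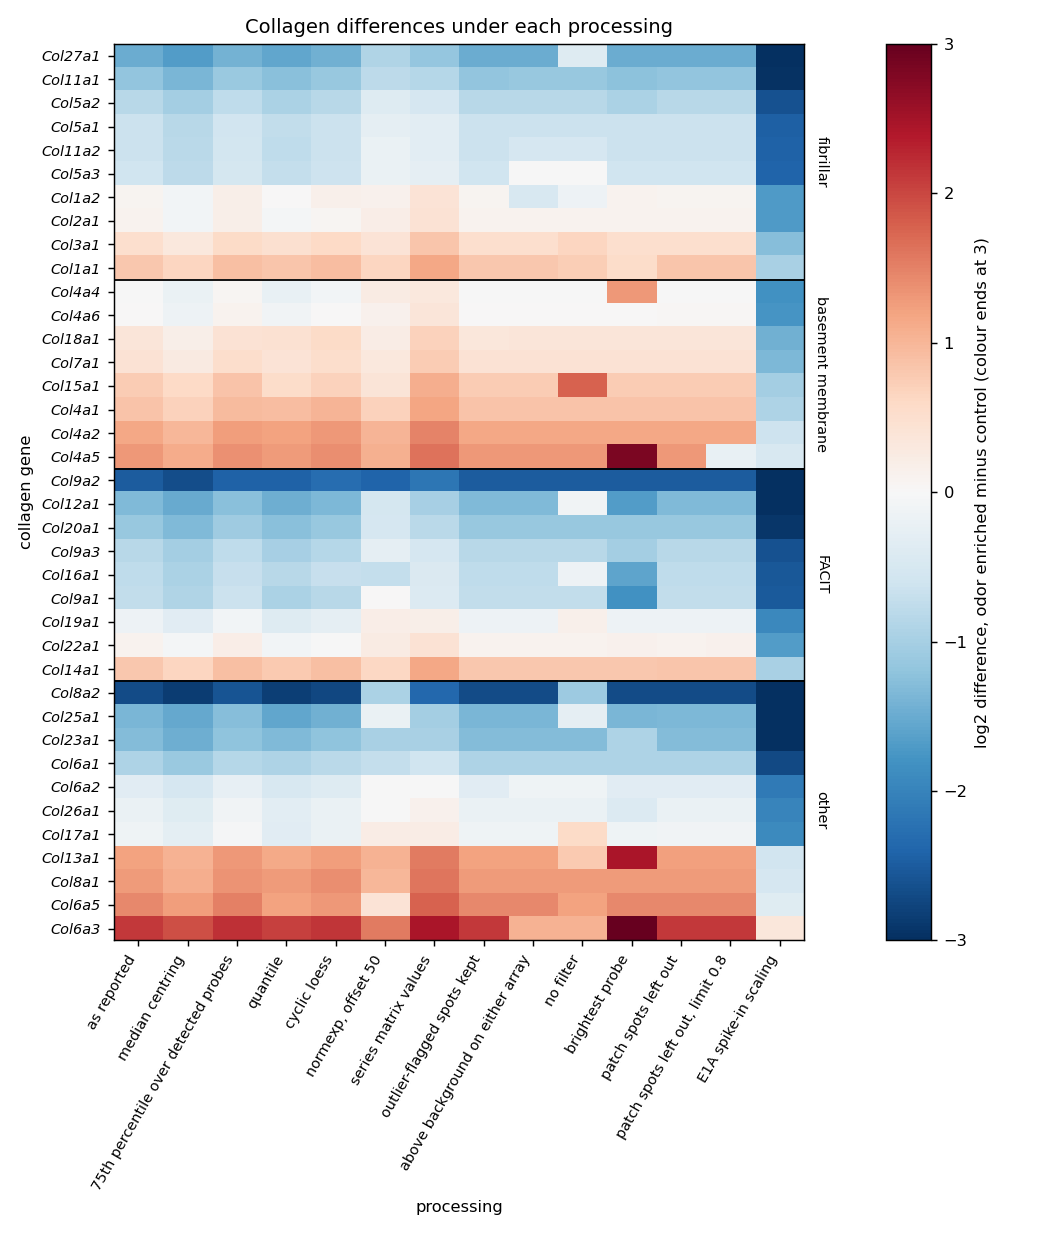
Rows are the 38 collagens grouped by class, columns are the processing as reported and 13 alternatives, and colour is the log2 difference (blue lower, red higher in the odor-enriched mouse, ending at 3). Col9a2 stays blue across the row, Col8a2 and Col25a1 pale under normexp, Col4a5 turns pale blue when spots in bright surroundings are left out at 0.8, and the column of E1A scaling is blue except for Col6a3 (0.33).

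Across the 12 alternatives other than E1A scaling, 13 of the 14 collagens past 2-fold kept their direction, Col4a5 being the exception. Not all of the 12 could turn a direction. Median centring, the 75th percentile over detected probes and the matrix values move all genes by 1 constant each (-0.17, 0.08 and 0.33). No collagen spot was an outlier or lay in a patch past 1.2, so leaving such spots in or out hardly changed the collagens. Past 2-fold in all 12 were Col9a2, Col8a1 and Col6a3. Col9a2 and Col8a1 have 1 probe each, which the filters and probe rules could not change. In all, 10 of the 38 collagens changed side of 0 in at least 1 alternative. Of these 10, 9 differed by less than 2-fold as reported.

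Chains that share a molecule were compared next. All 3 type IX chains (-2.50 to -0.73), all 3 type V chains (-0.84 to -0.61) and both type XI chains (-1.19 and -0.64) lay below 0. Of these, Col9a1 had probes at -1.82 and 0.36 and was at 0.01 with normexp. Col5a3 lay near 0 when its helix probe is counted. Col4a1 and Col4a2 lay above 0 and turned below it with E1A scaling. Type I chains lay at 0.82 and 0.09, the latter (Col1a2) at -0.49 when its control-only probe is counted. Type VI and type VIII chains lay on both sides of 0. Type VIII was the only molecule with 1 chain at least 2-fold higher and another at least 2-fold lower. Each of these chains had 1 measured probe, and Col8a2 was at -0.96 with normexp. The sequences upstream of the 2 type VIII genes are shown because the chains differed in this way. They are the 250 bases before the RefSeq start, 5′ to 3′ on the gene's strand in GRCm38.p6, with the GC box (GGGCGG or CCGCCC) in capitals, where adjoining matches overlap.
Col8a1: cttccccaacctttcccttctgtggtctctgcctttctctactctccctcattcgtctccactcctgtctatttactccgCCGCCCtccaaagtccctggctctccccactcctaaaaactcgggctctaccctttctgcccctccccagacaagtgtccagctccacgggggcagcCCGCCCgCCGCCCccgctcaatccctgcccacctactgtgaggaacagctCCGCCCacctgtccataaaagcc
Col8a2: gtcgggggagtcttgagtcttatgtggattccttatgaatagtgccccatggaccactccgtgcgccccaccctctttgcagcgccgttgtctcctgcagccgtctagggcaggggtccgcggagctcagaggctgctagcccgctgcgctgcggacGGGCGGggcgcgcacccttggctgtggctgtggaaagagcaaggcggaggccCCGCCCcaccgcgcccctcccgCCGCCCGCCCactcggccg

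These windows lie at chr16:57754738-57754987 on the minus strand for Col8a1 and at chr4:126286544-126286793 on the plus strand for Col8a2. Both hold GC boxes, and neither holds the letters TATAAA or CCAAT on either strand. Upstream windows were matched for 35 collagens, with 38 windows in all. A GC box lay in 22 of 38 collagen windows (57.9%) and in 32.7% of all 32851 windows. CCAAT lay in 34.2% and 33.8%, and TATAAA in 13.2% and 12.4%, in the same order.

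Genes that make, fix, bind and cut collagen were taken as lists. Over all genes 11.5% were at least 2-fold higher and 5.52% lower, and the counts of each list stand beside these shares. Of 21 enzymes and chaperones that fold and modify the chains, 4 were at least 2-fold lower and 0 higher, with a median of -0.44. The lowest were P3h2, a prolyl 3-hydroxylase (-0.999 in the control mouse and -2.67 in the other, -1.68), and Colgalt2, which adds galactose to hydroxylysine (-0.80 and -2.11, -1.31). The highest were P4hb, a subunit of prolyl 4-hydroxylase (-1.61 and -0.75, 0.87), and Serpinh1, the collagen chaperone HSP47 (2.14 and 2.89, 0.75). Of the 21 genes of the list 15 lay below 0, and of the 38 measured collagens 21 lay below 0 and 17 above it. With E1A scaling Serpinh1 and all measured collagens but Col6a3 lay below 0. A link between this list and the collagens was not tested.

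Of 11 measured genes of procollagen processing and cross-linking 2 were lower and 1 higher, with a median of -0.24. Pcolce2, an enhancer of the C-propeptide protease, was at -1.55 and -3.45 (-1.89), and Adamts2, the N-propeptide protease, at -1.38 and -2.98 (-1.60). Lox, the cross-linking lysyl oxidase, was at -4.19 and -2.71 (1.48), and Adamts14, a relative of Adamts2, at -2.86 and -2.07 (0.78). Of 10 measured collagen receptors 4 were higher and 1 lower, beside 11.5% and 5.52% of all genes, with a median of 0.40. Itga1, the integrin chain that binds type IV collagen, was at -2.58 and -0.17 (2.40), and Gp6, the platelet receptor, at -5.27 and -3.37 (1.90). Mrc2, which takes up cleaved collagen, was at -1.20 and -2.50 (-1.30), and Adgrg1, a receptor for type III collagen, at 4.80 and 4.04 (-0.75).

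Partners of type IV collagen in the basement membrane had a median of 0.07. Of 15 measured, 2 were higher (13.3%) and 1 lower (6.67%), near the 11.5% and 5.52% of all genes. The laminin chains Lama5 (0.62 and 2.35, 1.73) and Lama3 (-4.27 and -2.83, 1.43) were highest. The nidogens, which bridge laminin and type IV collagen, were lowest, Nid1 at -1.13 and -2.26 (-1.13) and Nid2 at 0.03 and -0.65 (-0.68). Of 6 measured collagen-degrading proteases 1 was higher and 1 lower. Mmp13 was at -5.005 and -1.38 (3.63), close to the background in the control and at 1.35 with normexp. Mmp8 was at -0.46 and -1.95 (-1.49), Mmp9 at -2.09 and -3.01 (-0.93) and Mmp2 at -2.29 and -1.85 (0.43).

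TGF-beta, which induces fibrillar collagen genes in many cell types, had a pathway list with 1 of 14 members higher, 0 lower and a median of -0.10. Over all genes 11.5% were higher and 5.52% lower. Skil, an inhibitor of SMAD signalling that the pathway induces, was at -1.14 and 0.76 (1.90), and Smad7, another such inhibitor, at -1.76 and -1.05 (0.71). Tgfbr3 was at 0.31 and -0.40 (-0.71) and Smad2, a transducer of the signal, at 0.65 and 0.15 (-0.49). The 24 genes named from these 6 lists kept their direction in all 12 alternatives. Those of the 12 that only move all genes by 1 constant (0.33 at most in size) could turn none of them. With E1A scaling only differences above 1.78 stayed above 0. Of the 14 named list genes past 2-fold, 4 stayed past it with normexp (Itga1, Lama5, Mmp13 and Skil), and the other 10 had sizes between 0.43 and 0.85.

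**Figure D5:**
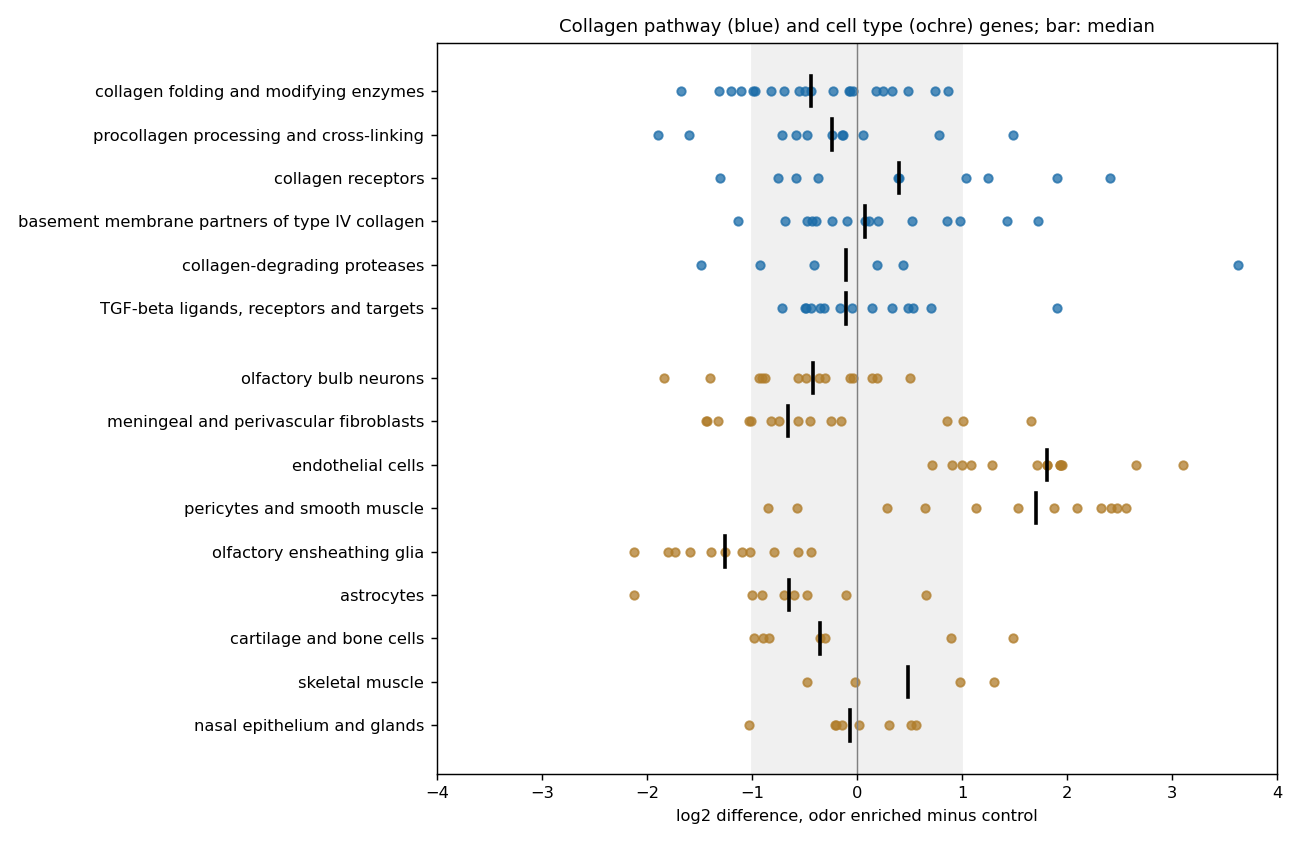
Each point is 1 gene measured on both arrays, on an axis of log2 difference (odor enriched minus control), with collagen pathway lists in blue, cell type marker lists in ochre, list medians as black bars and the band under 2-fold in grey. The endothelial (1.80) and pericyte (1.70) medians lie highest and the ensheathing glia median (-1.26) lowest, while the 6 pathway medians lie between -0.44 and 0.40; with E1A scaling the endothelial median is 0.02 and the pericyte median -0.08.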

How the data were processed

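Per the labels' protocols, total RNA of the olfactory bulb was labelled with Cy3 and hybridised to 1 Agilent mouse array per mouse. Per the file headers, the authors read the spots with Agilent Feature Extraction 11.5.1.1. The deposited processed signal is an intensity from which the software had subtracted background and removed the trend across the slide. The deposited series matrix holds log2 values equal to that signal minus 1 constant per array (column medians -9.48 and -8.98), of unstated origin. It served as an alternative. Both arrays lay on 1 slide, per the file headers.

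Outlier spots were left out, log2 signals were averaged per probe, and the array's 75th percentile over probes was subtracted. No collagen spot was an outlier or saturated (0 of each). A gene is the mean of the probes that were well above background on each array. Genes above background on 1 array only have an approximate bound, set against the lowest signal well above background on the other. Some probes not well above background exceeded that signal, so the bound is not strict. Calls are at 2-fold, with no test, since the number of arrays limits the precision. Summed list signals are log2 of summed linear values. Every collagen above background was named, with the 2 highest and 2 lowest of each pathway list and the highest and lowest of each marker list, except for 1 marker list that is not reported here. Members and lists were chosen with earlier results of these data known. Python 3.11.15 (numpy 2.4.6, pandas 2.3.3) and R 4.3.3 with limma 3.58.1 were used, and the steps were tested on simulated data. Alternatives were other scalings, normexp (offset 50), filters, probe rules, fold thresholds and patches of spots, of 9 rows by 5 columns around each spot, whose median difference exceeded 1.2 in size.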

Additional observations from a re-analysis of the deposited data

How the results depend on the processing

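No paired analysis was possible because each group holds 1 array. The number of arrays, the scaling and dim probes all limit the values. The patch limit of 0.8 was chosen after the data were seen and gave Col4a5 at -0.23. E1A scaling gave 0 collagens at least 2-fold higher and 29 lower, and 362 and 20118 of all genes. It moved the medians to -1.92 for all collagens, -2.41 for fibrillar, -1.18 for basement membrane, -2.55 for FACIT and -1.98 for other types, -0.0797 for pericytes, and turned Col13a1 (-0.57), Col4a2 (-0.62), Col4a5 (-0.49), Col6a5 (-0.35) and Col8a1 (-0.51) below 0. Normexp gave 1 lower collagen, and 1256 higher and 622 lower of all genes. The deposited matrix gave 10 collagens higher and 4 lower, and 4466 and 582 of all genes. Median centring gave 2061 lower genes in all, and probes above background on either array 2380. Without a filter (a shift of 0.21 in the median gene) 9379 genes were higher and 2294 lower. At 1.5-fold 10 collagens were higher and 16 lower (5072 and 3891 of all genes), and at 3-fold 1 and 2 (1286 and 330). Of 840 values recomputed, 736 stayed within their limits, 97 moved and 7 reversed; the causes were not tested.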
